A study of Mus musculus with 25 samples.

Results

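The subunits of respiratory complex III, complex IV and the ATP synthase were followed as RNA in 2 white fat depots of the mouse, together with cytochrome c, the carrier that joins complex III to complex IV. The set held 36 nuclear-encoded genes of the 54752 genes in the count tables. The rule listed gene symbols and used no measured value, although the list was drawn up with earlier results of these data known: 9 subunits of complex III, Cycs, 11 subunits of complex IV, 9 subunits of the F1 head and stalks of the ATP synthase, and 6 subunits of its c ring and membrane part. All 36 passed the filter on low counts in both depots.

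All mice were C57BL/6N males. In epididymal (eWAT) and in inguinal (iWAT) white adipose tissue, wild type mice on a normal chow diet (WT ND, 4 libraries in eWAT and 3 in iWAT) stood beside wild type mice on a high fat diet (WT HFD, 5 and 5) and Acod1-/- mice on the high fat diet (KO HFD, 5 and 3). The high fat diet drew 60% of its calories from fat, was begun when mice were 5 weeks old and lasted 16 weeks, a time also given for the ND samples, whereas the labels of iWAT KO HFD replicates 2 and 3 give 17 and 18 weeks. Acod1 encodes the enzyme that makes itaconate from cis-aconitate. The knockout line lacks it in every cell of the body, no Acod1-/- mice on ND were included, and the sources do not say whether both depots came from the same mice.

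Complex III passes electrons from ubiquinol to cytochrome c, complex IV passes them on to oxygen, and both pump protons across the inner mitochondrial membrane. The ATP synthase lets these protons back through its c ring, and the turning of the central stalk inside the F1 head drives the making of ATP. White adipocytes hold few mitochondria compared with brown and beige adipocytes, which burn fuel for heat, and nearly all subunits are encoded in the nucleus and imported, while a few core subunits are encoded by mitochondrial DNA.

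Each library held 31.41 to 52.34 M counted reads, and no pair of libraries of a group agreed within sampling noise. Acod1, the deleted gene, had 0 to 9 reads in every library of every group, so it gave no check of the genotype. The deposited names of the libraries fall in 2 numbering series: all ND libraries and 1 library of each HFD group were in the second, so diet and series could hardly be told apart, and the sources do not say what the series are. Adipocyte markers took 2.03% to 4.56% of the reads of every library, and none of the 7 was at 0. Tissue is a mixture of cells, and in bulk RNA fewer cells of a type cannot be told apart from less RNA per cell.

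The 36 genes together took 0.891% ± 0.0794 of counted reads (SD, n = 4) in eWAT WT ND, 0.953% ± 0.119 (n = 5) in WT HFD and 1.10% ± 0.188 (n = 5) in KO HFD. In iWAT the shares were 1.24% ± 0.242 (n = 3), 1.08% ± 0.0676 (n = 5) and 1.21% ± 0.187 (n = 3). The groups of each depot overlapped, so the summed level of the set did not separate diets or genotypes.

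The summed reads of the complexes did not shift alike within that total. In eWAT, complex IV took 0.268% ± 0.0259 of reads on ND and 0.322% ± 0.0457 in WT HFD, the c ring and membrane subunits of ATP synthase 0.105% ± 0.0109 and 0.128% ± 0.0195, and complex III 0.151% ± 0.0150 and 0.163% ± 0.0218. The F1 and stalk subunits instead took 0.355% ± 0.0330 on ND and 0.326% ± 0.0401 in WT HFD. A sum follows its most abundant genes, such as Atp5b (1459 CPM on average over the 25 libraries). Per gene, the median log2 fold change was 0.27 for F1 and stalk (6 of 9 positive). It was 0.34 for complex III (5 of 9), 0.34 for complex IV (11 of 11) and 0.40 for c ring and membrane (5 of 6). Among the reads of the 36 genes, the part of F1 and stalk was 39.9% on ND and 34.3% in WT HFD, and that of complex IV 30.1% and 33.8%. The shares of all counted reads overlapped between the diets for each complex. Within the reads of the 36 genes, the F1 and stalk part was 38.3% to 41.2% on ND and 32.2% to 38.2% in WT HFD, and the c ring and membrane part 11.6% to 12.4% and 12.6% to 14.4%, without overlap in either. In iWAT, the F1 and stalk subunits took 0.412% to 0.559% of reads in the 3 ND libraries and 0.340% to 0.410% in the 5 WT HFD libraries, which did not overlap, a ratio of HFD to ND of 0.820. This gap depended on the scaling: as summed CPM with TMM factors the same libraries ran from 3670 to 5499 on ND and from 3334 to 4269 in WT HFD, which overlapped, and the median log2 fold change of these 9 genes was 0.04.

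**Figure D1:**
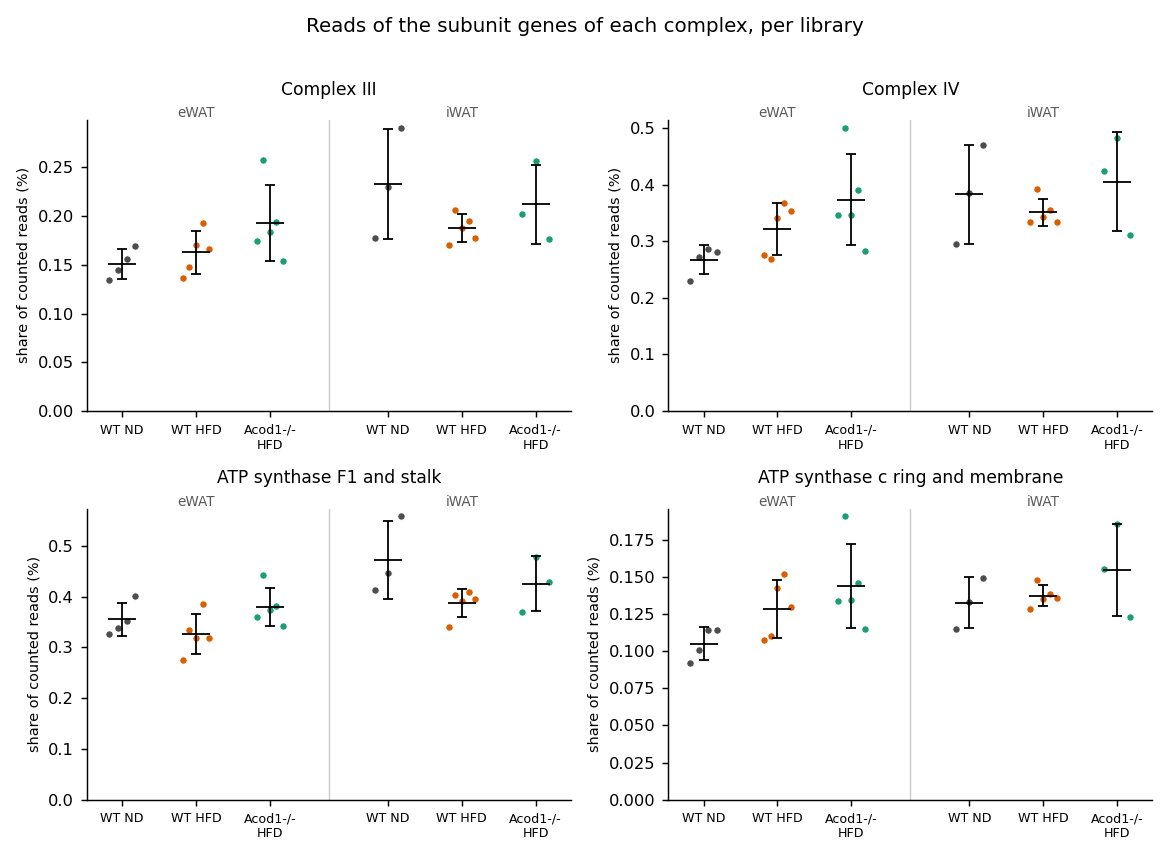
Share of counted reads (%) taken by complex III, complex IV, the F1 and stalk subunits and the c ring and membrane subunits of ATP synthase; each point is a library, and bars give the mean and SD of each of the 6 groups. KO HFD replicate 2 is the highest point of its eWAT group in every panel, and in the F1 and stalk panel the iWAT ND libraries lie above the iWAT WT HFD libraries.

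The first question was what the high fat diet did to these genes in eWAT. Of the 36 genes, 12 were higher and 2 lower in WT HFD than in WT ND, where 24.8% of all 14936 genes tested were higher and 26.9% lower (edgeR quasi-likelihood test, Benjamini-Hochberg adjusted p under 0.1). Their median log2 fold change was 0.33 against −0.04 over all genes tested, and 28 of 36 were positive. Both figures changed with a correction for gene length: with the trend against principal transcript length removed, 1 was higher and 13 lower with a median of −0.19, and with that against the deposited cDNA length, 5 were higher and 3 lower with a median of 0.11. With the numbering series as a term, 1 was higher and 1 lower, and 5139 of the 14936 genes tested were called in either direction. The shares of all genes in the length-corrected fits are not given here, so their counts have no background beside them. By complex, 3 of 9 complex III genes rose and 1 fell, 3 of 11 complex IV genes rose, 3 of 9 F1 and stalk genes rose and 1 fell, and 3 of 6 c ring and membrane genes rose.

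In complex III, the gene that fell was Uqcrc2, which encodes core protein 2 of the complex. It was at 208, 219.9, 251 and 304 CPM (read counts scaled to a common library size, with TMM factors) in the 4 ND libraries and at 144, 168, 178, 194 and 159 in the 5 WT HFD libraries. Every HFD library lay below every ND library. Its log2 fold change was −0.54 (SE 0.15, edgeR adjusted p = 0.0130), and it kept its call under all 26 other settings tried, the length-corrected ones and the one with the numbering series included. On the opposite strand, Pdzd9 overlaps 19.7% of the exon bases of Uqcrc2, but had at most 111 reads in a library.

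The complex III genes that rose were the small subunits Uqcr10, Uqcr11 and Uqcrq, with log2 fold changes of 0.60, 0.63 and 0.62 and edgeR adjusted p-values of 0.0496, 0.0716 and 0.0856. The catalytic subunits of the complex were not among them. Cyc1, the heme-bearing cytochrome c1, had −0.21 (edgeR adjusted p = 0.349), and Uqcrfs1, the Rieske iron-sulfur protein, −0.08 (edgeR adjusted p = 0.778). Cycs itself, cytochrome c, was at 118 ± 17.6 CPM on ND and 140 ± 33.5 in WT HFD, a log2 difference of 0.25 that did not pass (edgeR adjusted p = 0.347).

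In complex IV all 11 genes had positive log2 fold changes, from 0.18 to 0.52, and 3 passed the test: Cox6b1 (0.52), Cox7b (0.48) and Cox7a2 (0.47), all small nuclear-encoded subunits around the catalytic core. Their edgeR adjusted p-values, 0.0877, 0.0965 and 0.0972, lay close to the limit, and each call was lost without ND replicate 1 or 2 or WT HFD replicate 3, 4 or 5. The same held for Uqcr11, Uqcrq and Atp5l, so the number of genes higher ranged from 3 (without ND replicate 1, ND replicate 2 or WT HFD replicate 4) to 17 (without KO HFD replicate 2, a library outside the contrast that shares its estimate of spread).

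Among the F1 and stalk genes, Atp5e, which encodes the epsilon subunit of the central stalk, rose most. It was at 100, 114, 131 and 125 CPM in the ND libraries and at 164, 154, 275, 294 and 240.2 in the WT HFD libraries. No HFD library reached down to the ND range, and the log2 fold change was 0.94 (SE 0.26, edgeR adjusted p = 0.0119). Atp5o, the subunit that ties the peripheral stalk to the F1 head, went from 52.3 ± 9.06 to 80.6 ± 18.9 CPM (log2 0.63, SE 0.22, edgeR adjusted p = 0.0367), with WT HFD replicate 1, at 58.2, inside the ND range. Atp5d, the delta subunit, rose by 0.47 (edgeR adjusted p = 0.0654). The calls of Atp5e and Atp5o were lost in the fit with the numbering series as a term and in both corrections for principal transcript length, and held when any 1 library was left out.

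Atp5b, the catalytic beta subunit, moved the other way. It was at 1253, 1259, 1426 and 1812 CPM on ND and at 771, 1218, 1011, 1357 and 1016 in WT HFD. Only WT HFD replicate 4 lay inside the ND range. The log2 fold change was −0.42 (SE 0.17, edgeR adjusted p = 0.0590), and the call was lost without ND replicate 4 (0.195), WT HFD replicate 1 (0.105), WT HFD replicate 3 (0.110) or WT HFD replicate 5 (0.103). It was also lost with no filter on low counts, at a threshold of 0.05, with cDNA length corrected and with the numbering series as a term. In all it was lost under 8 of 26 other settings. Atp5a1, the alpha subunit that alternates with beta in the head, had −0.19 and Atp5c1, the gamma subunit of the central stalk, −0.18, and neither passed.

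Of the c ring and membrane genes, Atp5g1, Atp5j2 (subunit f) and Atp5l (subunit g) rose, by 0.61, 0.59 and 0.39. Atp5g1, 1 of the 3 genes for the c subunit, was at 32.0, 45.3, 41.9 and 38.9 CPM in the ND libraries and at 55.5, 46.6, 56.0, 74.7 and 67.7 in the WT HFD libraries (SE 0.17, edgeR adjusted p = 0.0119). The groups did not overlap for Atp5g1 or Atp5j2, which with Uqcrc2 and Atp5e made 4 such genes of 36. That count was not made over all genes tested, so these 4 have no background beside them. Macrophage markers moved with the diet in the same libraries: 7 of 7 rose, none was at 0, and their summed share was 0.0373% to 0.0801% of reads on ND, 0.110% to 0.414% in WT HFD and 0.0254% to 0.120% in KO HFD. Markers of red blood cells (5 of 5 lower, 0.0916% to 0.195% of reads on ND and 0.0297% to 0.0755% in WT HFD), endothelium (4 of 5 lower, 0.0613% to 0.112% and 0.0322% to 0.0573%) and epithelium (5 of 6 lower, 0.00301% to 0.0414% and 0.00037% to 0.00216%, with Krt5 at 0 in every WT HFD library) moved the other way. Epididymis markers took 0.838% of reads in ND replicate 2, a library without which 3 genes were higher, and at most 0.0108% in the other ND and WT HFD libraries, and the part of all these cells in the results was not tested.

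**Figure D2:**
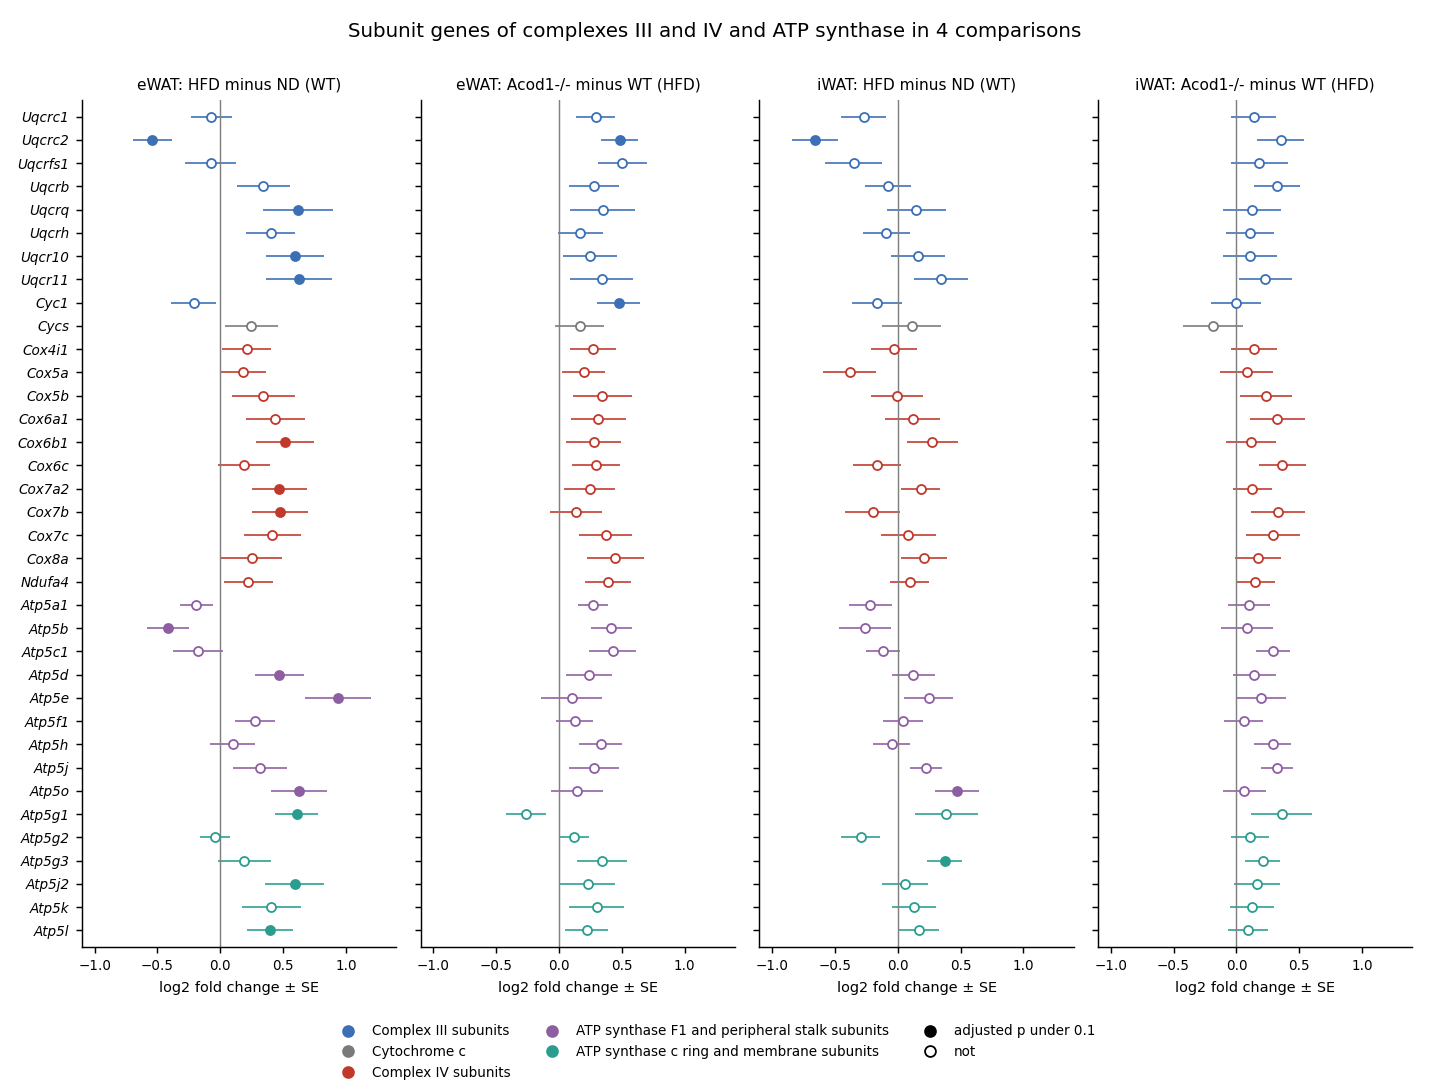
Log2 fold change with its SE for each of the 36 genes in 4 comparisons (diet and genotype in eWAT and in iWAT), in the order of the complexes; filled points passed edgeR at adjusted p under 0.1. Filled points number 14 for diet in eWAT, 2 for genotype in eWAT, 3 for diet in iWAT and 0 for genotype in iWAT.

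Most of these genes are short, and in eWAT the median log2 fold change with HFD over all genes was higher for shorter transcripts. The principal transcript (the annotated main coding transcript) had a median length of 748 bases over the 36 genes, from 371 to 4715, against 2958 bases over the 13474 tested genes that had one. It was at most 1000 bases long in 24 of the 36 genes and in 845 of those 13474. Over all tested genes, the median log2 fold change of diet in eWAT was 0.57 for transcripts of up to 500 bases, 0.43 from 500 to 1000, 0.16 from 1000 to 2000, −0.07 from 2000 to 4000 and −0.19 from 4000 to 8000. The subunit genes in the same classes had medians of 0.61 (4 genes), 0.34 (20 genes) and −0.08 (9 genes) in the 3 shortest, close to other genes of their length in the first and below them in the next 2. Of the 24 short ones 9 rose and 0 fell, and of the 12 longer ones 3 rose and 2 fell.

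The trend also differed between libraries: the slope of log2 level on log2 principal transcript length, relative to the depot mean, was 0.07 to 0.20 in the 4 eWAT ND libraries, −0.12 to 0.07 in the 5 WT HFD libraries and −0.15 to 0.001 in the 5 KO HFD libraries. Before this trend was removed, 26.9% of all genes were lower in WT HFD, and the share with it removed is not given here. In the fit that removed this trend, 13 genes were lower in WT HFD, a count that was 6 without ND replicate 4, 8 without WT HFD replicate 1 and 9 to 17 without any other library. Besides Uqcrc2 (−0.63, edgeR adjusted p = 0.00369) and Atp5b (−0.50, edgeR adjusted p = 0.0209), they were Cyc1 and Uqcrb of complex III, Cox5a, Cox6c, Cox8a and Ndufa4 of complex IV, Atp5c1 and Atp5h of the stalks, and Atp5g2, Atp5g3 and Atp5k of the membrane part. Atp5g1 alone was higher (0.76), and that call rests on a choice of transcript: its principal transcripts run from 596 to 4715 bases, and with the shortest 1 its log2 fold change was 0.08 (edgeR adjusted p = 0.546), 0 genes were higher and 9 lower.

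The length column deposited with the counts is the union of all exons of a gene. Corrected on that length, 5 genes were higher and 3 lower. Uqcrc2 and Atp5b had negative log2 fold changes under each length, whereas the sign of Uqcr10, Uqcr11, Cox6b1, Cox7a2 and Atp5l turned with the choice. Uqcrc2 was called under each length, and Atp5b was not called when cDNA length was corrected. What produced the length trend, in the tissue or in the making of the libraries, was not tested.

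**Figure D3:**
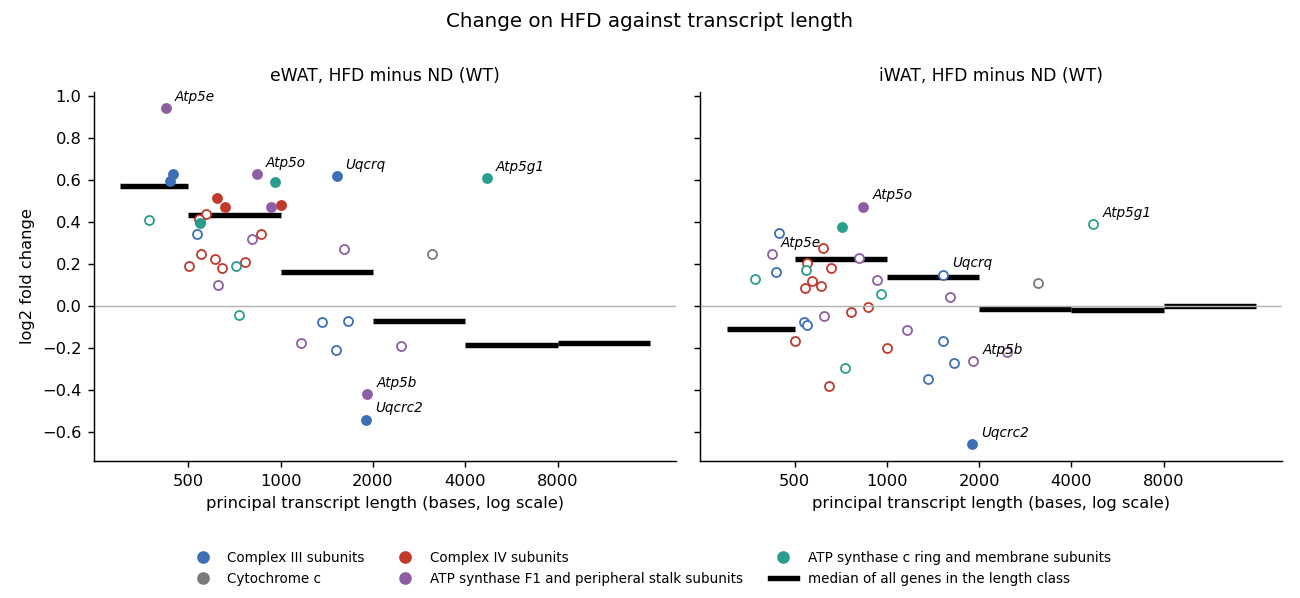
Log2 fold change of diet (WT HFD minus WT ND) in eWAT and in iWAT against the length of the principal transcript in bases (log axis); points are the 36 genes by complex, and black bars are the medians of all tested genes in each length class. In eWAT the bars fall from 0.57 in the shortest class to −0.19 between 4000 and 8000 bases, and Uqcrc2 and Atp5b lie below them.

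The second question was how loss of Acod1 altered these genes on HFD. In eWAT, 2 of 36 were higher and 0 lower in KO HFD than in WT HFD, where 9.13% of all genes tested were higher and 10.8% lower, so the share of members called lay below that of all genes. The median log2 fold change was 0.28 against 0.04 over all genes, and 35 of 36 were positive. The 2 genes were both in complex III. This comparison shares the 5 WT HFD libraries with that of diet.

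Uqcrc2 was at 225, 309.8, 236, 228 and 182 CPM in the KO HFD libraries, against 144 to 194 in WT HFD. Only KO HFD replicate 5 lay within the WT HFD range. Its log2 fold change was 0.48 (SE 0.15, edgeR adjusted p = 0.0475), and the KO HFD mean of 236 ± 46.4 CPM stood beside 246 ± 42.9 in WT ND. The call was lost without WT HFD replicate 1 (0.42, edgeR adjusted p = 0.122) and with no filter on low counts (edgeR adjusted p = 0.108).

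Cyc1 was at 172, 319, 231, 208 and 199.9 CPM in KO HFD and at 130, 166, 161, 204 and 151 in WT HFD. The groups overlapped, and the log2 fold change was 0.47 (SE 0.17, edgeR adjusted p = 0.0809). The call was lost without any 1 of WT HFD replicates 1, 2, 3 or 5 or KO HFD replicates 2, 3 or 4, with edgeR adjusted p-values of up to 0.195. Just outside the limit were Uqcrfs1 (0.50, edgeR adjusted p = 0.1002) and Atp5b (0.42, edgeR adjusted p = 0.101). Atp5b was at 1437 ± 143 CPM in KO HFD, 1075 ± 224 in WT HFD and 1437 ± 262 in WT ND.

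The complexes had medians of 0.34 (III), 0.29 (IV), 0.27 (F1 and stalk) and 0.22 (c ring and membrane). Atp5g1 was the only gene with a negative log2 fold change, −0.26 (edgeR adjusted p = 0.295). KO HFD replicate 2 stood above the eWAT mean in 36 of 36 genes, by a median of 0.88 on the log2 scale, and without it the median over the 36 genes was 0.067, with 1 gene higher (Uqcrc2) and 1 lower. KO HFD replicates 1, 3 and 4 stood above the eWAT mean in 34, 32 and 35 genes, by medians of 0.14, 0.14 and 0.21. WT HFD replicates 3, 4 and 5 stood above it in 28, 35 and 27 genes. Without WT HFD replicate 1 no gene was called, and without KO HFD replicate 5, which was above the eWAT mean in 3 of 36 genes, 8 were higher.

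Correcting for principal transcript length did not lower this count but raised it to 10 higher and 0 lower, with a median of 0.25. Without the correction 9.13% of all genes were higher, and the share in the corrected fit is not given here. The count in that fit was 2 without WT HFD replicate 1, 4 without KO HFD replicate 3, 5 (median 0.154) without KO HFD replicate 2, 6 without WT HFD replicate 2, 16 without KO HFD replicate 5 and 7 to 10 without any other library. The 10 genes were Uqcrc2, Cyc1 and Uqcrfs1 of complex III, Cox8a and Ndufa4 of complex IV, Atp5a1, Atp5b, Atp5c1 and Atp5h of the F1 and stalk, and Atp5g3 of the c ring. In that fit Uqcrc2 was at 0.50 (edgeR adjusted p = 0.0262), Cyc1 at 0.48 (edgeR adjusted p = 0.0430) and Atp5b at 0.44 (edgeR adjusted p = 0.0638). Markers of cells moved with genotype in these libraries: 7 of 7 macrophage and 2 of 7 B and T cell markers were lower in KO HFD, and 3 of 7 adipocyte markers higher. KO HFD replicate 2 had brown and beige markers at 0.00939% of reads, against 0.00267% to 0.00535% in the other KO HFD libraries. Its skeletal muscle markers were at 0.0164%, against 0.00649% to 0.00885%. Epididymis markers took 0.106% in KO HFD replicate 5, against at most 0.0169%. The part of all these cells was not tested.

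**Figure D4:**
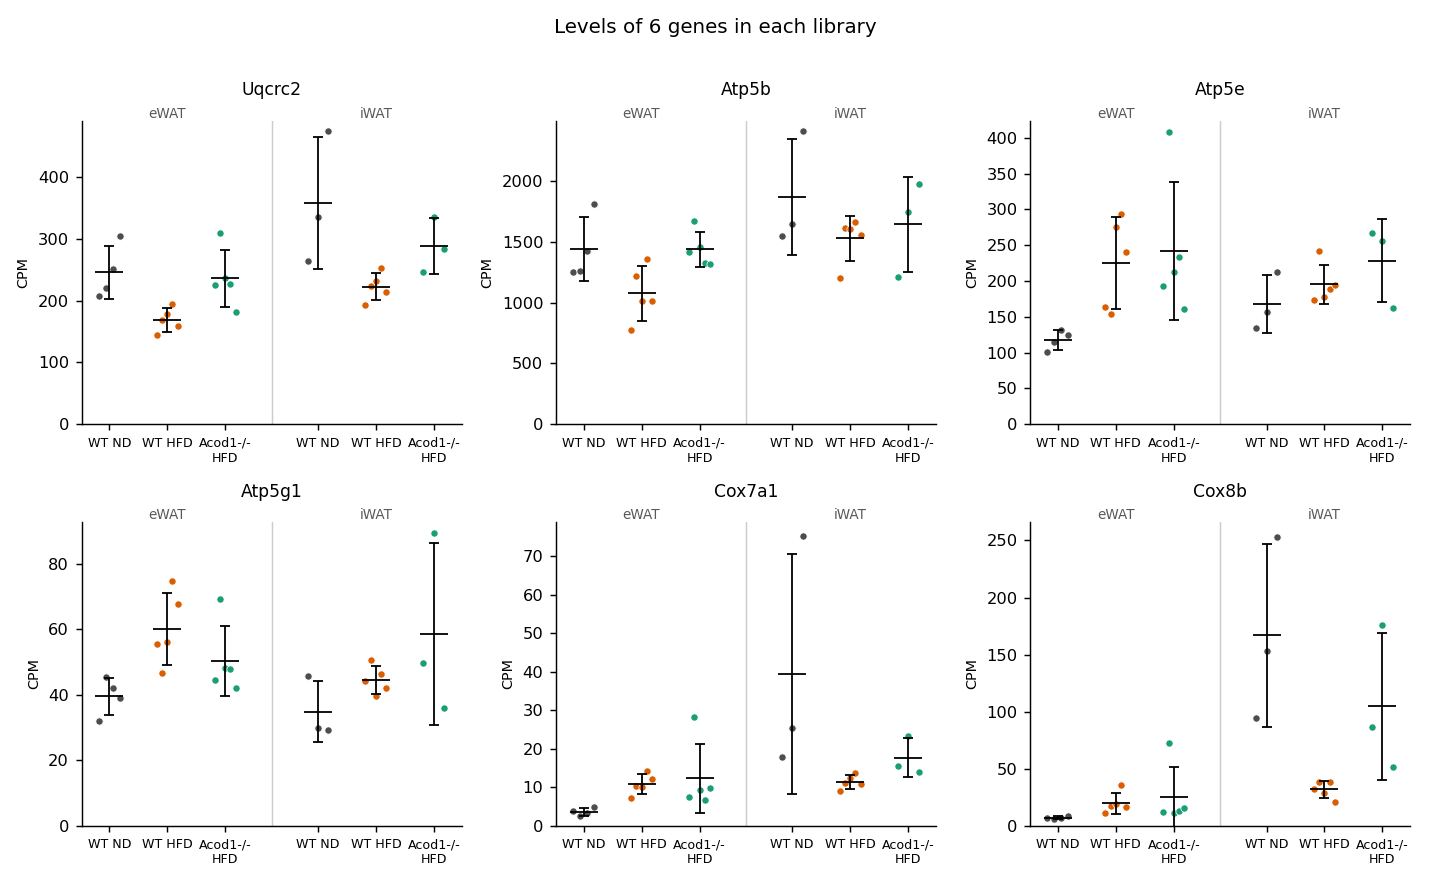
CPM of Uqcrc2, Atp5b, Atp5e, Atp5g1, Cox7a1 and Cox8b in each library of the 6 groups, with mean and SD. In eWAT, Uqcrc2 is lower in every WT HFD library than in every ND library, and in iWAT Cox7a1 and Cox8b are highest in ND replicate 3.

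In iWAT, 2 of 36 genes were higher and 1 lower in WT HFD than in WT ND, against 25.9% higher and 24.2% lower of all 14801 genes tested. The median log2 fold change was 0.07 (0.00 over all genes), and 20 of 36 were positive. Uqcrc2 was again the gene that fell. It was at 264, 336 and 474 CPM in the 3 ND libraries and at 192, 223, 232, 252 and 214 in the 5 WT HFD libraries. The groups did not overlap, and the log2 fold change was −0.66 (SE 0.18, edgeR adjusted p = 0.0142), with the call kept under all 23 other settings.

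The genes that rose were Atp5o and Atp5g3. Atp5o was at 51.8, 60.4 and 81.5 CPM on ND and at 78.7, 107, 84.2, 89.2 and 80.5 in WT HFD (log2 0.47, SE 0.17, edgeR adjusted p = 0.0475). Atp5g3, another c-subunit gene, was at 442, 484 and 539 CPM on ND and at 556, 699, 628, 634 and 585 in WT HFD (log2 0.37, SE 0.14, edgeR adjusted p = 0.0522). The groups overlapped for Atp5o, through ND replicate 3, and not for Atp5g3. Neither call held in the fit with the numbering series as a term, nor without ND replicate 1, ND replicate 2 or WT HFD replicate 2. The call of Atp5g3 was also lost without WT HFD replicate 3 or 4.

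ND replicate 3 and ND replicate 1 set the direction of the whole set. ND replicate 3 was above the iWAT mean in 33 of 36 genes and ND replicate 1 in 1. Without the first, 6 genes were higher with a median of 0.25, and without the second, 0 were higher and 4 lower with a median of −0.11. The same libraries differed in other tissue markers: brown and beige adipocyte markers took 0.0233% to 0.146% of reads on ND, the highest in replicate 3, against 0.00862% to 0.0156% in WT HFD, and skeletal muscle markers took 0.906% in ND replicate 1 against at most 0.0358% in the other ND libraries. The B and T cell markers took 0.0563% to 0.0882% in ND and at most 0.00728% in the other iWAT libraries. With HFD, 5 of 7 macrophage and 5 of 5 endothelium markers were higher and 0 lower. Of 7 adipocyte markers, 4 were higher and 1 lower. The part of all these cells was not tested.

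Without a length correction, 25.9% of all genes were higher and 24.2% lower in iWAT of WT HFD mice, and the shares with it are not given here. With principal transcript length corrected, 1 gene was higher (Atp5o, 0.26) and 11 lower in iWAT of WT HFD mice, with a median of −0.12. Without ND replicate 3 this became 2 higher and 4 lower with a median of −0.0158, and 6 were lower without WT HFD replicate 1 or 5. The 11 genes were 5 of the 9 complex III genes (Uqcrc1, Uqcrc2, Uqcrfs1, Uqcrb and Uqcrh), Cox5a, Cox6c and Cox7b of complex IV, and Atp5c1, Atp5h and Atp5g2. Uqcrc2, Cox5a, Cox6c, Uqcrb, Atp5c1, Atp5h and Atp5g2 were thus lower in both depots in that fit.

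Loss of Acod1 called none of the 36 genes in iWAT, where 0% of all genes were called higher and 0% lower by edgeR. At an unadjusted p under 0.05, 1 of the 36 passed and 2468 of all genes, and DESeq2 called 1072 of all genes and 0 of the 36. The median log2 fold change was 0.15 (−0.01 over all genes) with 34 of 36 positive. The gene with the smallest p was Atp5j, coupling factor 6 of the peripheral stalk, at 336, 329 and 229 CPM in KO HFD and 215 to 260.1 in WT HFD (log2 0.32, SE 0.13, edgeR adjusted p = 0.237). Atp5c1, at 341, 427 and 339.9 CPM against 246.5 to 320.2, was the only gene of the 36 whose groups did not overlap (log2 0.29, SE 0.14, edgeR adjusted p = 0.308). Genes without overlap were not counted over all genes tested.

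KO HFD replicate 3, 1 of the libraries whose label gives another time on the diet and the only KO library of the second numbering series in iWAT, decided this count. Without it 6 of the 36 genes and 2664 of all genes were called, and the median was 0.31, and without KO HFD replicate 2 the median was 0.057. KO HFD replicate 2 had epithelium markers at 0.0569% of reads, against 0.000333% and 0.000396% in KO HFD replicates 1 and 3. Its brown and beige markers were at 0.0344%, against 0.0169% and 0.0161%. By group, brown and beige markers took 0.0161% to 0.0344% of reads in KO HFD and 0.00862% to 0.0156% in WT HFD. Macrophage markers took 0.0269% to 0.0316% and 0.0392% to 0.0989%. Neither pair of ranges overlapped, although 0 of 7 genes in each list were called. The part of all these cells was not tested. Uqcrc2 was at 289 ± 44.9 CPM in KO HFD (n = 3) and 223 ± 22.04 in WT HFD (n = 5), a log2 difference of 0.35 (SE 0.18, edgeR adjusted p = 0.365).

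None of the 36 genes passed the test of a difference between the depots in the response to diet, where 14% of all 15034 genes tested were higher and 15% lower, although 32 of 36 differences were positive (higher in eWAT) with a median of 0.27. The genes with the 2 largest differences were Atp5e (0.72, edgeR adjusted p = 0.146) and Cox7b (0.70, edgeR adjusted p = 0.130). The response to genotype also called 0 of 36, with 0% of all genes higher and 0.00665% lower, and Atp5g1, at −0.65 (edgeR adjusted p = 0.468), had the largest difference. At an unadjusted p under 0.05, 1 of the 36 passed in each of these, and DESeq2 called 1 (higher) and 0. For diet, leaving out 1 library gave up to 3 genes higher, that number without iWAT ND replicate 1, and 3 were also higher with a replicate block across depots. These p-values do not show that the depots responded alike.

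On ND, 9 of 36 genes were lower and 0 higher in eWAT than in iWAT (14.2% and 17.5% of all genes), with a median of −0.45 and 35 of 36 negative. They were 6 complex III genes (Uqcrc1, −0.59, Uqcrfs1, −0.74, Uqcrc2, −0.54, Cyc1, −0.56, Uqcrh, −0.52, and Uqcrb, −0.54), Cox5a (−0.78) and Cox7b (−0.72) of complex IV, and Atp5a1 (−0.37). Their edgeR adjusted p-values ran from 0.0122 (Cox5a) to 0.0867 (Uqcrb). The count rested on iWAT ND replicate 3, without which 0 were lower and the median was −0.22, while without iWAT ND replicate 1 it was 22. Brown and beige adipocyte markers took 0.0233% to 0.146% of reads in iWAT ND and 0.00139% to 0.00279% in eWAT ND, and B and T cell markers 0.0563% to 0.0882% and 0.000432% to 0.00107%, and their part was not tested.

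In WT HFD, 0 genes were higher and 3 lower in eWAT than in iWAT (10.8% and 7.75% of all genes), namely Cyc1 (−0.58, edgeR adjusted p = 0.0320), Atp5b (−0.51, edgeR adjusted p = 0.0464) and Uqcrc2 (−0.40, edgeR adjusted p = 0.0885). Each of these 3 calls was lost without eWAT WT HFD replicate 1 and without iWAT WT HFD replicate 2. In KO HFD, 0 of 36 passed in either direction (2.01% and 1.8% of all genes), 0 had an unadjusted p under 0.05, DESeq2 called 0, and the median was −0.07. Whether the depot gap itself differed between the diets is the diet by depot comparison above, which called none.

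**Figure D5:**
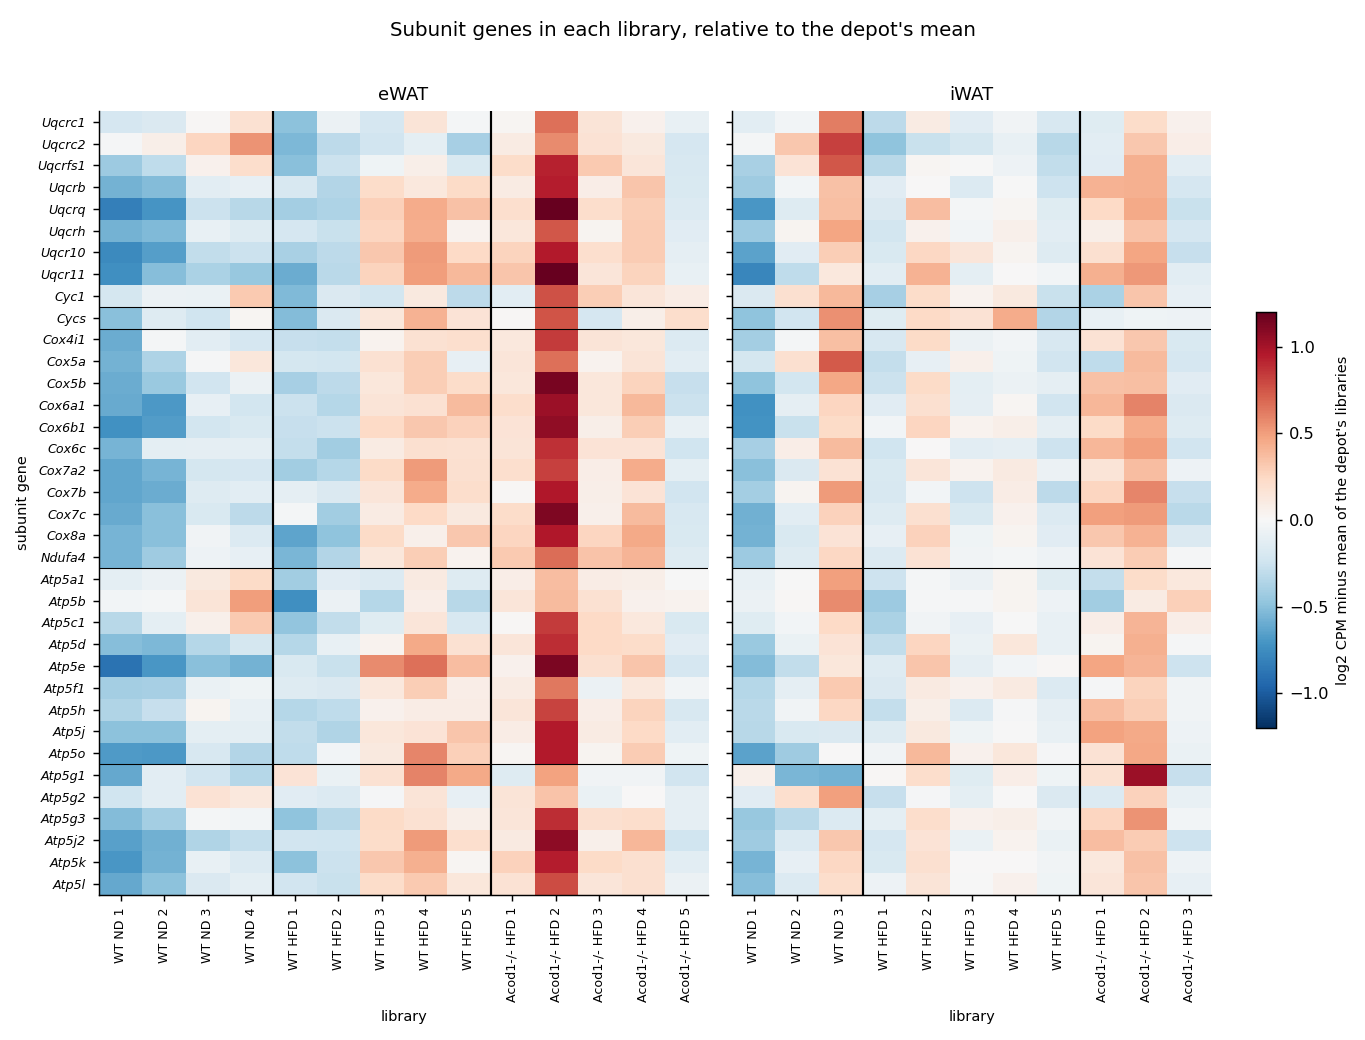
Heat map of the 36 genes (rows, by complex) in the 25 libraries (columns, by group), as log2 CPM minus the mean of the depot, on a colour scale from −1.2 to 1.2. By this scaling each row averages 0 within a depot. Columns above the depot mean in nearly all genes include eWAT KO HFD replicates 1, 2, 3 and 4 (replicate 2 by most), eWAT WT HFD replicate 4, iWAT ND replicate 3 and iWAT KO HFD replicate 2. Columns below it in nearly all genes include eWAT ND replicates 1 and 2, eWAT WT HFD replicates 1 and 2, eWAT KO HFD replicate 5, iWAT ND replicate 1 and iWAT WT HFD replicates 1 and 5.

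Within groups the 36 genes went up and down together. The correlation of their deviations from the group means, over pairs of genes, had a median of 0.88 in eWAT (14 libraries, 630 pairs, 0 negative) and 0.85 in iWAT (11 libraries, 4 negative), as a description over libraries that share depth and scaling. In eWAT, Atp5b had the lowest mean correlation with the other 35 genes, 0.61, followed by Cyc1 at 0.73 and Atp5g1 at 0.75. The single members therefore carried much of the same library-to-library variation, and 36 genes are not 36 independent observations.

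The c subunit, of which several copies form the rotating ring, is encoded by Atp5g1, Atp5g2 and Atp5g3, whose precursors differ and give the same mature protein. Their promoters are shown because the 3 genes moved apart, beside Atp5e, which rose in eWAT, and Cox6a1, which holds motifs of 2 regulators. Each run has 250 bases before the annotated start and 50 from it on (RefSeq, GRCm38.p6, minus strand, 5′ to 3′), and capitals mark a match to a searched motif, on either strand.

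Atp5g1, chr11:96075582-96075881, no match: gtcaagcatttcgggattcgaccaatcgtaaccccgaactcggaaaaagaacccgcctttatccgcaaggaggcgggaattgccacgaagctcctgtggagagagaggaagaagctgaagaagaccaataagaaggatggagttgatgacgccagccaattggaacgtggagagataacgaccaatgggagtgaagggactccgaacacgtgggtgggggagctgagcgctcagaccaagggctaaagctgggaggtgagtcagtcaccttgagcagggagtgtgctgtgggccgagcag
Atp5g2, chr15:102670998-102671297, NRF1 core: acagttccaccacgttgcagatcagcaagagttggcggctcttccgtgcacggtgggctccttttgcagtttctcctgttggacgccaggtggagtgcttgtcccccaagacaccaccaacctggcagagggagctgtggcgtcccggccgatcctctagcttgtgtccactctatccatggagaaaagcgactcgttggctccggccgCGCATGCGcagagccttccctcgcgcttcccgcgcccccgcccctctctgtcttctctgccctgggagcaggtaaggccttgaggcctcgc
Atp5g3, chr2:73911277-73911576, ERR site: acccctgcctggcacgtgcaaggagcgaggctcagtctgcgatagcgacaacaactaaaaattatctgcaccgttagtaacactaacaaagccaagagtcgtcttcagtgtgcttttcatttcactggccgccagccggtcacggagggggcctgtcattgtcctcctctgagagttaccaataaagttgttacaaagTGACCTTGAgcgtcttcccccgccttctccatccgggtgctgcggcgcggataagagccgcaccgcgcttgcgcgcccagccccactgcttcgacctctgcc
Atp5e, chr2:174464052-174464351, ETS site: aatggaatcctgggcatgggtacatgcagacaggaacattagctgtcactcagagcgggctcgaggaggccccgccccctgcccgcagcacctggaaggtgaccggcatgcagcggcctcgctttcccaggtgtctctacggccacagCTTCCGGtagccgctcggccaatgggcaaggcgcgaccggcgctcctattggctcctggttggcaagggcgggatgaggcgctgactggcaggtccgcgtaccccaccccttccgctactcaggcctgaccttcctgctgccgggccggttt
Cox6a1, chr5:115348909-115349208, NRF1 core and ETS site: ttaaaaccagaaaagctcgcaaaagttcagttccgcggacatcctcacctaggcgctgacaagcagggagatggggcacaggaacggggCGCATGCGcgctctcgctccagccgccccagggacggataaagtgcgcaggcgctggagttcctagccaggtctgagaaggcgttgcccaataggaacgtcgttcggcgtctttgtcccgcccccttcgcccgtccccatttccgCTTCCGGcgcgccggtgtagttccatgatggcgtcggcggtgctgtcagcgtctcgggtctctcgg

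Atp5g3 made up most c-subunit reads in all groups, with means of 78.0% to 84.6%. In eWAT, Atp5g1 made up 7.36% ± 1.27 on ND (n = 4), 9.77% ± 1.39 in WT HFD (n = 5) and 6.76% ± 0.374 in KO HFD (n = 5). Its 5 KO HFD libraries, at 6.32% to 7.26%, all lay below the 5 WT HFD libraries, at 7.78% to 11.5%. In CPM, Atp5g1 was at 39.5 ± 5.65, 60.1 ± 11.1 and 50.3 ± 10.8 in these groups.

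Atp5g2, in contrast, was at 77.1 ± 10.47 CPM on ND, 74.8 ± 7.05 in WT HFD and 81.5 ± 11.05 in KO HFD in eWAT and did not pass in either comparison. In iWAT its part of c-subunit reads was 12.2% to 15.6% on ND and 8.95% to 9.94% in WT HFD, while in CPM it went from 86.4 ± 18.8 to 69.0 ± 5.58 (log2 −0.29, edgeR adjusted p = 0.144). Parts of a total move against each other, so these shares show unequal change and not which gene changed.

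The motifs searched on both strands were CCGGAAG (an ETS site as bound by GABP), CGCATGCG (the NRF1 core), AAGATGGC (YY1) and TCAAGGTCA (ERR), in 31 promoters of the 28 genes matched by symbol and in all 32851 promoters of the reference. The ETS site was in 32.3% of the 31 and 8.86% of all, the NRF1 core in 25.8% and 1.87%, the YY1 site in 6.45% and 2.75%, and the ERR site in 3.23% and 0.423%. Matches stood both in genes that rose with HFD in eWAT and in genes that did not pass: Atp5e and Uqcr11 hold the ETS site, as do Cox8a and Atp5h, and Atp5g1, which rose, holds none of the 4. Unmatched were Uqcrq, Atp5f1, Cyc1, Cox6c, Uqcrb, Uqcrc2, Atp5a1 and Cox4i1.

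By level per kilobase of principal transcript, over all 25 libraries, Cox4i1 (987 CPM per kilobase), the largest nuclear-encoded subunit of complex IV, and Atp5g3 (784) were highest and Cycs (48.8) and Atp5g1 (10.3) lowest. With the shortest principal transcript Cox4i1 (1014) was still highest, Ndufa4 (877) came before Atp5g3, Atp5g1 was at 81.4 and Cycs was lowest. Per kilobase of cDNA length, Cox8a (731) and Cox6b1 (505) were highest, before Cox4i1 (487), so the order depends on the length used. Near-identical copies are annotated elsewhere in the genome for 9 of the 36 genes. Of the reads of a gene and its copies together, the copies held 3.41% to 6.10% for Atp5l and 2.07% to 5.13% for Atp5o. For each of the others they held at most 3.27% (Atp5h).

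Tissue isoforms of complex IV replace ubiquitous subunits in muscle, heart or brown fat. In eWAT, 5 of the 8 genes for tissue isoforms, isoform relatives and the ATP synthase inhibitor rose with HFD and 1 fell, against 24.8% and 26.9% of all genes. Cox7a1, the counterpart of Cox7a2, was at 3.70, 2.52, 3.41 and 4.86 CPM on ND and at 7.30, 10.4, 9.94, 14.2 and 12.1 in WT HFD. The groups did not overlap, and the log2 fold change was 1.57 (edgeR adjusted p = 0.00734).

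In iWAT Cox7a1 fell instead, from 17.7, 25.5 and 75.2 CPM to 8.92, 11.1, 12.5, 13.6 and 10.9 (log2 −1.77, edgeR adjusted p = 0.00402). Cox8b, the counterpart of Cox8a, went from 7.13 ± 1.23 CPM to 19.9 ± 9.21 in eWAT (log2 1.48, edgeR adjusted p = 0.0394, 0.103 without WT HFD replicate 4, and 0.176 and 0.161 with length corrected) and from 167 ± 80.5 to 31.8 ± 7.36 in iWAT (log2 −2.37, edgeR adjusted p = 0.000834). The eWAT call of Cox8b was lost under 5 of 26 other settings, over which its log2 fold change went down to 0.41 and its adjusted p (edgeR or DESeq2) up to 0.606. The response to diet differed between depots for Cox7a1 and Cox8b (log2 difference 3.37, edgeR adjusted p = 0.000336, and 3.87, edgeR adjusted p = 0.000696). Brown and beige markers, a list that holds both genes, moved the same way: 5 of 6 tested rose in eWAT, from 0.00139% to 0.00279% of reads on ND to 0.00420% to 0.00908% in WT HFD, and 5 of 7 fell in iWAT.

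Per length, Cox7a1 made up 17.8% to 36.5% of Cox7a1 plus Cox7a2 in iWAT ND, 7.98% to 9.83% in WT HFD and 10.8% to 13.5% in KO HFD. For Cox8b beside Cox8a the ranges were 35.0% to 46.6%, 8.16% to 12.8% and 18.3% to 33.7%. The 3 iWAT groups did not overlap for either pair. Cox8b itself had a log2 difference of 1.69 between KO HFD and WT HFD in iWAT that did not pass (edgeR adjusted p = 0.137), with libraries at 86.7, 176 and 51.4 CPM against 20.99 to 38.7.

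Cox4i2, an isoform of Cox4i1, made up at most 1.07% of the pair per length in any library, and rose in iWAT (log2 0.85, edgeR adjusted p = 0.0385, 0.136 without ND replicate 3, 0.139 with principal length corrected). That call was lost under 5 of 23 other settings, over which its log2 fold change went down to 0.40 and its adjusted p (edgeR or DESeq2) up to 0.497. Cox6a2, the muscle isoform of Cox6a1, had 0 to 1 reads in the eWAT ND libraries and 76 to 164 in the WT HFD libraries (edgeR adjusted p = 0.000272), or 1.53 to 4.25 CPM, and 0.107 to 1.2 CPM in KO HFD (edgeR adjusted p = 0.0291). The 8 skeletal muscle markers, a list that holds Cox6a2, took 0.00530% to 0.00813% of reads on ND and 0.00431% to 0.00754% in WT HFD. Of the 6 tested, 2 rose, Cox6a2 and Myh4, the latter at 0 in every ND library.

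The integrin gene Itgad, which lies opposite Cox6a2 and covers 10.3% of its exon bases, moved the same way in eWAT with diet: it was at 0 to 1.08 CPM in eWAT ND, 16.4 to 43.9 in WT HFD and 0 to 26.1 in KO HFD, where replicate 5 was highest for both genes. Its log2 fold change with diet in eWAT was 6.24 (edgeR adjusted p = 0.0118), and that with loss of Acod1 was −2.42 and did not pass (edgeR adjusted p = 0.233). The strand setting of the counting is not given in the sources used here, and reads of the 2 genes cannot be told apart if strand was ignored. In iWAT Cox6a2 was called lower in WT HFD (edgeR adjusted p = 0.0477), where the ND libraries were at 25.9, 0.410 and 0.933 CPM, the first being the library with 0.906% skeletal muscle markers. Itgad moved the opposite way there, from 0.0455 to 0.353 CPM on ND to 13.2 to 87.5 in WT HFD (log2 7.74, edgeR adjusted p = 0.00582).

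Atpif1 encodes the inhibitor that binds F1 and stops the ATP synthase from running backwards. It was at 31.6, 47.8, 22.6 and 22.9 CPM in eWAT ND, at 115, 67.5, 64.4, 89.8 and 61.8 in WT HFD, and at 42.2, 45.5, 31.1, 43.6 and 46.5 in KO HFD. WT HFD stood above both other groups without overlap. The log2 fold change was 1.35 with diet (SE 0.24, edgeR adjusted p = 0.00120) and −0.93 with loss of Acod1 (SE 0.22, edgeR adjusted p = 0.0203), the latter called under all 27 other settings and the former under 25 of 26. In iWAT it rose with HFD as well, from 20.3 ± 3.53 to 40.8 ± 6.09 CPM (log2 1.03, edgeR adjusted p = 0.0200, 0.198 with the numbering series as a term), and was at 37.8, 87.4 and 28.7 in KO HFD.

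Assembly factors bring heme, copper and subunits together. Of 22 tested complex IV factors, 10 rose and 3 fell with HFD in eWAT (median 0.35), and 7 rose and 3 fell in iWAT (median 0.14), where 24.8% and 26.9% of all genes in eWAT and 25.9% and 24.2% in iWAT were higher and lower. Cox19, a copper-handling protein of the intermembrane space, rose by 0.86 in eWAT and 0.81 in iWAT (edgeR adjusted p = 0.00173 and 0.000936), and Cmc2 by 1.18 and 0.95 (edgeR adjusted p = 0.00201 and 0.000911). Both were called under all other settings, the length-corrected ones included.

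Lrpprc, which stabilises mitochondrial mRNAs, went the other way, from 49.6 ± 6.39 CPM on ND to 34.1 ± 2.28 in WT HFD and 42.9 ± 3.17 in KO HFD in eWAT. Its log2 fold changes were −0.54 with diet (edgeR adjusted p = 0.00129) and 0.33 with loss of Acod1 (edgeR adjusted p = 0.0375). In iWAT it fell by 0.47 with diet (edgeR adjusted p = 0.0411), a call lost without ND replicate 3 (0.107) and with the numbering series as a term (0.329). Coa4 fell by 0.84 in KO HFD eWAT (edgeR adjusted p = 0.0630), a call lost without WT HFD replicate 1 or 4 or KO HFD replicate 1, 3 or 4.

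Of 6 complex III factors, Uqcc2 rose with HFD in both depots, by 1.09 and 0.46 (edgeR adjusted p = 0.00794 and 0.0414), and Uqcc1 rose by 0.31 in KO HFD eWAT (edgeR adjusted p = 0.0889), a call lost under 15 of 27 other settings. The iWAT call of Uqcc2 was lost under 5 of 23 other settings, those without ND replicate 1 or 2 among them. Over these settings its log2 fold change went down to 0.21 and its adjusted p (edgeR or DESeq2) up to 0.284. Its eWAT call was lost under 1 of 26 (0.225). Of 5 ATP synthase assembly and accessory genes, 2 rose and 1 fell in eWAT with HFD. They include Atp5mpl (0.82, edgeR adjusted p = 0.0146) and Usmg5 (0.62, edgeR adjusted p = 0.0346), small membrane proteins of the enzyme whose calls were lost with principal length corrected (0.09 and −0.12). Tmem70, needed to assemble the c ring, rose by 0.34 in KO HFD eWAT (edgeR adjusted p = 0.0576), a call lost without WT HFD replicate 1 or 2 or KO HFD replicate 2 or 4.

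The mitochondrially encoded subunits of these complexes did not pass in eWAT with diet (median −0.29) or genotype (median 0.82, 6 of 6 positive). Their summed share was 3.86% ± 1.03 of reads on ND, 2.91% ± 0.839 in WT HFD and 4.29% ± 1.60 in KO HFD, and nearly all of it was mt-Co1 and mt-Cytb. In iWAT 6 of 6 were negative with HFD and 1 passed, mt-Co3 (−1.203, edgeR adjusted p = 0.0114), at 124, 45.6 and 53.9 CPM on ND and 25.4 to 40.5 in WT HFD. mt-Co2, mt-Co3 and mt-Atp6 each have a nuclear copy of identical sequence and were measured at 13.0 to 139 CPM, against 13585 to 43801 for mt-Co1, so their values are uncertain.

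Of 12 nuclear regulators of subunit genes, 6 fell and 0 rose with HFD in iWAT, with a median of −0.34, against 24.2% lower and 25.9% higher of all genes. Nrf1, a transcription factor for many respiratory genes, was at 26.4, 25.6 and 25.9 CPM in ND and 14.4, 16.4, 15.5, 12.3 and 16.7 in WT HFD, without overlap (log2 −0.75, edgeR adjusted p = 0.00586). Gabpb1, a subunit of the GABP factor, fell by 0.64 (edgeR adjusted p = 0.00804). In eWAT 1 of 12 rose and 3 fell, near the 26.9% of all genes that were lower, among them Gabpb1 (−0.45, edgeR adjusted p = 0.0491), whose call was lost without ND replicate 3 or 4 or WT HFD replicate 3 or 5.

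Tfb2m, a factor for transcription of mitochondrial DNA, fell by 0.48 with HFD in eWAT, from 27.9 ± 3.96 to 19.99 ± 2.21 CPM (edgeR adjusted p = 0.00665), and rose by 0.47 with loss of Acod1, to 27.6 ± 2.52 (edgeR adjusted p = 0.0203). Both calls held under all other settings. The response of Nrf1 to diet differed between depots by 0.61 (edgeR adjusted p = 0.0529).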

How the data were processed

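RNA of snap-frozen eWAT and iWAT was sequenced from a directional mRNA library kit in 25 libraries, 1 for each sample. Per the methods of the study and its processing notes, the authors trimmed adapters with cutadapt, dropped short reads and contaminants, and aligned to mouse genome build mm10 with STAR. The notes also name bedtools. The deposited files give, per library and gene, raw read counts, FPKM values computed by the authors and a cDNA length, which equalled the union of exons for 98.53% of genes. The counting program and its strand setting are not given in the sources used here. Reads counted as no feature (6.41% to 11.9% of a library) or ambiguous (1.52% to 2.07%) were left out of library sizes, and FPKM values were not used.

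Counts were tested with edgeR 4.0.16 (limma 3.58.1, R 4.3.3) by its quasi-likelihood test with TMM normalization, leaving out genes whose mean over the libraries fitted was under 1 CPM, with Benjamini-Hochberg adjustment over all genes tested and a threshold of 0.1. Diet (WT HFD minus WT ND) and genotype (KO HFD minus WT HFD) were fitted within each depot over its 3 groups, and depots over all 25 libraries and 6 groups. CPM values use TMM factors over all libraries, log2 CPM a prior count of 2. Alternatives were no filter, 1 CPM in every library, DESeq2 1.42.0 (its size factors, and its Wald test), a threshold of 0.05, the series as a term, a replicate block, each library left out, only the groups compared, series 1 only, and offsets that remove the trend (lowess span 0.3) against cDNA length or, added after seeing the data, principal transcript length and its shortest form. The steps were tested on simulated counts. Replicates are separate mice by the study's design. Copies were searched with BLAST 2.17.0, and figures drawn with matplotlib 3.10.9 in Python 3.11.15.

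The 36 genes and the other gene lists were chosen with earlier results of these data known. Genes named with values were, per comparison within a depot, the 3 called members with the smallest adjusted p in each direction (or the 2 with the smallest p), Uqcrc2 and Atp5b, the c-subunit genes, isoform pairs, Cycs, the extremes of level per length, and up to 2 called genes per list of other pathway genes. The other called members, Itgad, Pdzd9 and genes just outside the threshold were named after their values were seen.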

Additional observations from a re-analysis of the deposited data

Results flagged for a closer look

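Among 88 groups of 4 or 5 libraries examined, 8 held a library far from the others of its group. Chance flags about 1 in 20 of independent groups. These are the same libraries seen through genes that go up and down together, so the 8 cannot be set against that rate. In eWAT KO HFD, replicate 2 stood apart for Atp5g1 (69.06 CPM, the other 4 libraries at 41.96 to 48.01), Atp5o (140.1 CPM, others 69.53 to 89.32), Atp5g3 (925.6 CPM, others 464.1 to 577.6), Atp5j (435.8 CPM, others 205.8 to 266.1) and Cox4i1 (1231 CPM, others 616.7 to 768.1). In iWAT WT HFD, replicate 1 stood below the other 4 libraries for Atp5b (1201 CPM, others 1558 to 1664), Atp5c1 (246.5 CPM, others 300.7 to 320.2) and the summed share of the F1 and stalk subunits (0.3398% of counted reads, others 0.3903% to 0.4095%).

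The response to diet differed between the depots (eWAT minus iWAT, edgeR quasi-likelihood test of the interaction) for 10 of the other genes of the pathway, of which 5 are among the genes named by the rule. By list, 4 were higher and 1 lower of 8 tissue isoforms and inhibitor, and 3 were higher of 12 nuclear regulators. Of 22 complex IV assembly factors 1 was higher, and of 6 mitochondrially encoded subunits 1. Over all 15034 genes tested, 14% were higher and 15% lower. Among those named, the log2 differences were 3.365 for Cox7a1, 3.867 for Cox8b, 0.6126 for Nrf1 and 1.318 for mt-Co3, the last at 0.74 (edgeR adjusted p = 0.303) without iWAT WT ND replicate 1. For Cox6a2 the fitted difference of 11.36 depends on the prior count, since the eWAT ND libraries held 0 to 1 reads, and is no bound.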

How the results depend on the processing

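Of the called single genes, those whose sign turned did so in eWAT with diet, under principal length, shortest principal length, and principal length with the series: Uqcr11 (−0.0633, −0.01715, −0.06133), Cox7a2 (−0.0794, −0.03917, −0.1524), Cox6b1 (−0.04176, −0.001979, −0.07786), Atp5l (−0.205, −0.1645, −0.2562), Uqcr10 (−0.09313, −0.04754, −0.1631) and Usmg5 (−0.1237, −0.08405, −0.05479) under all 3, Uqcrq under the second (−0.04484), and Atp5d (−0.03031) and Cox7b (−0.01978) under the last. In the same order the median over the 36 genes was −0.1915, −0.1655 and −0.273. The cause of these shifts was not tested.

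Counts of the 36 genes for diet in eWAT, higher and lower, were 7 and 1 with no filter, 4 and 1 at 0.05, 1 and 13 with principal length, 0 and 9 with shortest length, 1 and 1 with the series, and 1 and 10 with principal length and series, with 5 higher under cDNA length. For genotype in eWAT, 0 were higher with no filter, 5 by DESeq2, 1 at 0.05, 7 with cDNA length, 10 with principal length, 10 with shortest length (and 1 lower), 1 with only the 2 groups, and 8 with principal length and series. For diet in iWAT, 1 was higher with no filter, at 0.05, with principal and with shortest length, 0 with the series or principal length and series, and 4 with only the 2 groups, while 2 were lower with 1 CPM in every library and with only the 2 groups, 4 with cDNA length, 11 with principal and with shortest length, and 7 with principal length and series. For genotype in iWAT, 7 were higher within series 1. Diet by depot gave 1 higher with 1 CPM in every library, by DESeq2, and with principal and shortest length (and 1 lower in both of these). Between depots on ND, 5 were lower with no filter and at 0.05, 18 with principal and 17 with shortest length, and in WT HFD 1 with no filter, 6 with cDNA length, 16 with principal and 12 with shortest length. The shares of all genes called higher or lower under these settings are not given beside these counts. The summed c ring level in iWAT differed by 0.1818 (log2) between diets as TMM CPM.

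Over all genes, calls for diet in eWAT numbered 5139 with the series and 4602 with principal length and series, and for genotype in eWAT 1717 at 0.05. For genotype in iWAT they numbered 77 with no filter, 91 with 1 CPM in every library, 5 with size factors, 1072 by DESeq2, 2 with cDNA length, 54 with principal and 25 with shortest length, 4 with the series, 2157 within series 1, and 17 with principal length and series. Genotype by depot gave 96 by DESeq2, and depots in KO HFD 248 with 1 CPM in every library, 892 by DESeq2 and 305 at 0.05.

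Leaving out 1 library gave 3 to 17 higher and 1 to 2 lower for diet in eWAT, 0 to 8 and 0 to 1 for genotype in eWAT (all genes 1709 to 4238), 0 to 6 and 1 to 4 for diet in iWAT, 0 to 6 higher for genotype in iWAT (all genes 0 to 2664), 0 to 3 higher for diet by depot, 0 to 22 lower between depots on ND (all genes 2931 to 5061), and 0 to 1 higher and 0 to 5 lower in WT HFD (all genes 1672 to 3005). All genes ranged from 1 to 391 for genotype by depot and from 165 to 1033 for depots in KO HFD.

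Replicate numbers were not taken to pair the samples, since not every same-numbered pair of libraries correlated over 0.1 in its deviations: the range was −0.26 to 0.26 in eWAT (9 of 13 pairs over 0.1, median 0.16 against −0.01 for other pairs), −0.33 to 0.36 in iWAT (4 of 9) and −0.09 to 0.49 across depots (5 of 11). With a replicate block, 6 were higher for diet in eWAT, 0 for diet in iWAT, and 3 for diet by depot, 23 were lower between depots on ND and 7 in WT HFD, and genotype by depot gave 484 over all genes.

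Depth limits little here, except for Cox6a2 and Acod1, at 0 or a few reads. Limits are 3 to 5 mice in a group, 1 WT HFD library in each depot in the series of the ND libraries, a length trend that differs between groups, and marker levels of other cells (macrophage, muscle, B and T cell, epididymis) that differ between groups or libraries.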
